A study of Arabidopsis thaliana with 8 samples.

Results

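MicroRNA (miRNA) genes of Arabidopsis thaliana are transcribed by RNA polymerase II into hairpin precursors. The Dicer-like enzyme DCL1 cuts the hairpins into mature miRNAs, which guide the Argonaute protein AGO1 to complementary messenger RNAs. In plants many of these targets encode transcription factors that set leaf shape, the change from juvenile to adult growth, and flowering. Several other conserved families act on hormone receptors, on nutrient uptake or on the small RNA machinery itself. Trimethylation of histone H3 at lysine 4 (H3K4me3) marks the starts of transcribed genes. H3K27me3, laid down by Polycomb complexes, marks genes that are kept silent in some tissues, and H3K9me2 marks silenced transposable elements.

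The miRNA genes were the 177 rows that the deposited count files class as miRNA, of 109972 rows in all. The other rows are 27213 protein-coding genes, 31189 transposable elements and 51387 intergenic intervals, with a few small classes. All 177 identifiers had a symbol in RefSeq, and they fell into 105 families. The lists used here put 93 loci in 27 conserved families and left 84 loci in others. Among the conserved loci, 62 belong to families with transcription factor targets, 25 to families with hormone or nutrient targets and 6 to families with small RNA pathway targets.

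Chromatin immunoprecipitation followed by sequencing (ChIP-seq) was done with 4 antibodies, against H3, H3K4me3, H3K27me3 and H3K9me2. The leaf libraries came from wild-type Col-0 plants on MS agar plates, and their age was not given in the labels. The culture libraries came from a Col-0 cell line kept as a suspension in medium with 1.1 mg/l of the synthetic auxin 2,4-D and subcultured every 7 d, which was fixed in 1% paraformaldehyde for 15 min. Each antibody was used in 1 leaf and 1 culture library, 8 in all, so that no difference between leaf and culture has a replicate check and no p-value is given. Each interval below covers the counting error of the reads only, at 95%, and reads amplified by PCR are not independent molecules. Leaf holds many cell types and the culture is 1 line, so fewer cells with a mark and less of the mark per cell cannot be told apart.

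The libraries held between 1449274 and 5649143 nuclear reads. Pooled H3K9me2 over H3 was above 1 on transposable elements in both sample types, at log2 values of 1.40 in leaf and 0.76 in culture, and below 1 on protein-coding genes, at -1.79 and -1.26. A level is here the log2 of a mark's reads over the H3 reads, each divided by the nuclear reads of its library. A change is the culture level minus the leaf level. For single features 1 was added to each count, and a feature passed the count filter with at least 20 reads of the mark over both libraries and at least 10 H3 reads in each. A feature is said to have risen or fallen where its change was at least 2-fold and its interval excluded 0.

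Most miRNA genes are short and carried few reads. Row lengths ran from 63 to 2896 bp with a median of 125 bp, against 1917 bp for protein-coding genes, and 159 of the 177 rows were no longer than 300 bp. All miRNA rows together held 376 H3, 736 H3K4me3, 1136 H3K27me3 and 75 H3K9me2 reads in leaf, and 728, 1259, 2997 and 166 reads in culture. A row without a single read was common: 55 rows for H3 and 155 rows for H3K9me2 in leaf, and 32 and 137 rows in culture. A count of 0 allows up to 3 reads, or 1.66 H3K9me2 reads per 1000000 nuclear reads in leaf and 0.920 in culture. The 10 rows with the most reads held between 35.7% and 68.0% of the miRNA reads of a library. The loci lie on all 5 chromosomes, 16 of them in pericentromeric regions. A total of 37 rows overlap another row, 27 a protein-coding gene and 10 a transposable element, and reads in the overlap count for both.

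Pooled over the 177 rows, miRNA genes held more H3K27me3 than H3 in both sample types. The level was 1.02 in leaf, with an interval from 0.85 to 1.19, and 1.18 in culture, from 1.07 to 1.30. Protein-coding genes stood at 0.33 in leaf and -0.09 in culture, so the miRNA rows lay above them in both and farther above in culture. The change was 0.16 for miRNA genes, with an interval from -0.04 to 0.37, and -0.42 for protein-coding genes, whose interval does not overlap it. Intergenic intervals of 63 to 300 bp, which match most miRNA rows in length, stood at -0.50 in leaf and 0.05 in culture. Their change of 0.55 was larger than that of miRNA genes, so the miRNA rows lay less far above them in culture than in leaf. Transposable elements changed by 0.93 and all intergenic intervals by 0.22. Short rows alone, of at most 300 bp, gave the highest H3K27me3 among the miRNA length classes, 1.49 in leaf and 1.41 in culture. Their change was -0.08, with an interval from -0.35 to 0.19.

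H3K4me3 on miRNA genes stood at a level of 0.45 in leaf and 0.63 in culture, against 0.48 and 0.49 on protein-coding genes. A pair of rows that lie over protein-coding genes, MIR398c and MIR408, carried much of it. MIR398c alone held 32.5% of the miRNA H3K4me3 reads in leaf, and without it the level was 0.03 in leaf and 0.45 in culture. Without both rows it was 0.06 in leaf and 0.12 in culture, with intervals that include 0. The 18 rows over 300 bp stood at 0.89 in leaf and 1.19 in culture, while the short rows stood at -0.09 and -0.00, with intervals that include 0. Without MIR398c and MIR408 the long rows stood at 0.28 and 0.30. H3K9me2 was lower than H3 throughout, at -2.65 in leaf and -2.20 in culture, below protein-coding genes in both. Its change of 0.45, with an interval from 0.02 to 0.88, lay near the 0.53 of protein-coding genes and was -0.10 over the short rows. The share of H3 reads on miRNA rows changed by -0.15, with an interval from -0.33 to 0.03.

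**Figure D1:**
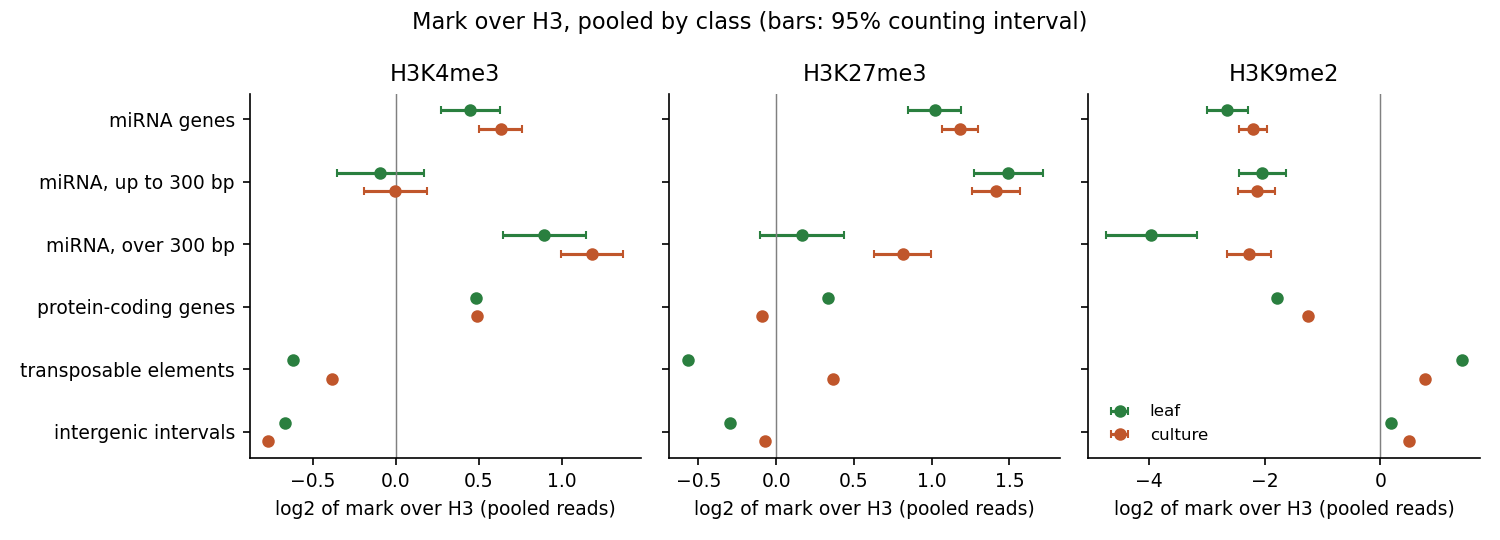
The log2 of mark over H3, from summed reads, is plotted for miRNA genes, their short and long rows, and the other classes, with 1 point per sample type and bars for the 95% counting interval. For H3K27me3 the miRNA genes sit at 1.02 in leaf and 1.18 in culture, to the right of protein-coding genes at 0.33 and -0.09.

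Rows that overlap a gene or element differed from rows that stand alone. The 140 rows without an overlap held H3K27me3 at 1.40 in leaf and 1.53 in culture and H3K4me3 near the H3 level, at 0.05 and 0.02. The 37 overlapping rows held H3K27me3 at -0.37 in both sample types and H3K4me3 at 1.03 and 1.52. MIR398c and MIR408 are among them, and without these 2 rows H3K27me3 stood at 0.23 and 0.09, still below the rows without an overlap. H3K4me3 then stood at 0.09 in leaf, with an interval from -0.35 to 0.53 that holds the value of the rows without an overlap, and at 0.44 in culture, from 0.13 to 0.74. Conserved families had more H3K27me3 than the other families, at 1.40 against 0.35 in leaf and 1.60 against 0.17 in culture. Within the conserved families, the 62 loci with transcription factor targets stood at 1.89 in leaf and 1.93 in culture for H3K27me3. The 25 loci with hormone or nutrient targets stood at 0.10 and 0.24 for H3K27me3 and at 1.31 and 1.91 for H3K4me3. These values turn on the same 2 rows: without MIR398c and MIR408 they were 1.54 and 1.31 for H3K27me3 and -0.52 and -0.13 for H3K4me3, the latter with intervals that include 0.

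Few rows had enough reads to be followed one by one. For H3K4me3, 6 rows passed the count filter, of which 2 rose and none fell, against 12.7% and 8.55% of protein-coding genes. MIR408 (AT2G47015, chr2:19319780-19321026, TAIR10), a copper-responsive gene whose miRNA acts on messenger RNAs of copper proteins, had 18 H3K4me3 reads in leaf and 249 in culture, with 20 and 29 H3 reads. Its change was 3.56, with an interval from 2.51 to 4.61. The whole row lies inside the protein-coding gene AT2G47020, which rose by 2.87 for H3K4me3, from 36 to 331 reads, and the reads of the overlap cannot be assigned to either. MIR163 (AT1G66725, chr1:24883931-24884559), a gene known from Arabidopsis and its close relatives, had 5 reads in leaf and 18 in culture, a change of 1.91 with an interval from 0.17 to 3.65. That call was lost by the mark alone, at 1.10 with an interval from -0.38 to 2.89, and over the row with its flanks, at 0.36 with an interval from -0.93 to 1.65.

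The other 4 rows neither rose nor fell for H3K4me3. MIR398c (AT5G14565, chr5:4694626-4697013), whose miRNA acts on copper/zinc superoxide dismutase messages, held 239 H3K4me3 reads in leaf and 212 in culture, a change of 0.00 with an interval from -0.70 to 0.70. In leaf it also held the most H3 reads of any miRNA row, 35, ahead of MIR156c with 26 and MIR824 with 25. It overlaps the nitrate transporter gene NRT2.7 for 1929 bp. MIR156c (AT4G31877, chr4:15413319-15415873), of the family that holds plants in the juvenile phase by acting on SPL transcription factors, held 81 and 133 reads, a change of 0.15. MIR824 held 38 and 73 reads, a change of 0.78, and overlaps AT4G24410 for 503 bp. MIR172a (AT2G28056, chr2:11941661-11943604), of the family that promotes the adult phase by acting on AP2-like factors, held 15 and 14 reads, a change of 0.68.

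For H3K27me3, 5 rows passed, of which 1 rose and none fell, against 2.76% and 26.7% of protein-coding genes. MIR172a rose, from 14 reads in leaf to 128 in culture with 19 and 14 H3 reads, a change of 3.24 with an interval from 2.00 to 4.47. MIR156c held the most H3K27me3 reads of any miRNA row in leaf, 140, and 176 in culture, a change of -0.87 with an interval from -1.62 to -0.13, which is short of 2-fold. MIR824 changed by 1.00, MIR163 by -0.28 and MIR398c by -0.11, and all 3 intervals include 0. So MIR156c carried both H3K4me3 and H3K27me3 above H3 in leaf and culture, while the H3K27me3 of MIR172a was high in culture alone. No row passed for H3K9me2. The 3 rows with most H3K9me2 reads in leaf were MIR401 with 12 reads, which overlaps a transposable element, MIR841a with 8, which overlaps the histone gene AT4G13570, and MIR426 with 7, which overlaps a transposable element. In culture they were MIR167d with 14, MIR843 with 13 and MIR156c with 11.

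**Figure D2:**
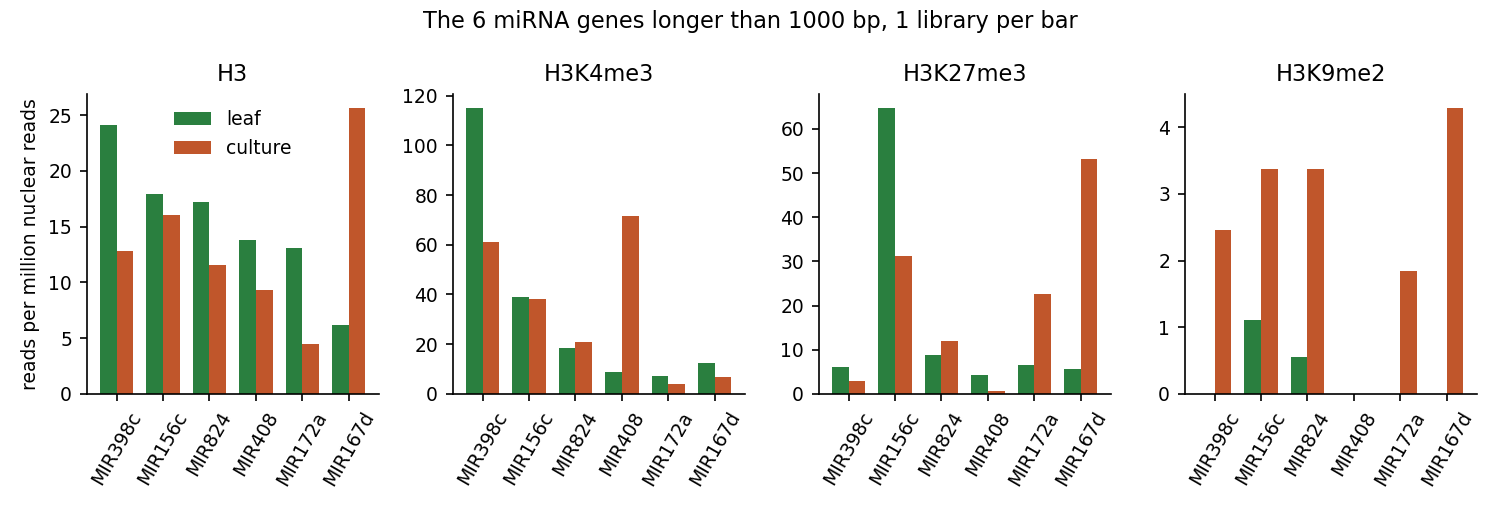
Reads per 1000000 nuclear reads are plotted for the 6 miRNA rows longer than 1000 bp, 1 bar per library and 1 panel per antibody. MIR408 stands out for H3K4me3 in culture at 71.6 against 8.67 in leaf, and MIR167d for H3K27me3 in culture at 53.1 against 5.55 in leaf. The H3 reads of MIR167d were also higher in culture.

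MIR167d (AT1G31173, chr1:11137365-11138969), whose family acts on the auxin response factors ARF6 and ARF8, held the most reads of any miRNA row in the culture H3 library, 80, ahead of MIR156c with 50 and MIR398c with 40, against 9 in leaf. Its H3K27me3 reads went from 12 to 300, the most of any miRNA row in culture. With too few H3 reads in leaf it did not pass the filter, so its mark is given as a share of nuclear reads, without H3. On that scale, added after the data were seen, the ratio of culture to leaf was 3.26 in log2, with an exact conditional binomial interval from 2.43 to 4.23, and the H3 reads moved the same way. MIR319a, whose family acts on TCP factors of leaf growth, was the third of the rows with most H3K27me3 in culture, with 149 reads against 43 in leaf, and MIR165b was the third in leaf, with 40 reads.

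Scored by the mark alone, 53 rows had at least 20 H3K27me3 reads over both libraries, of which 11 rose and 9 fell. The same rule called 5.13% of protein-coding genes as risen and 38.3% as fallen, with a median of -0.77. The filter sums both libraries, and the culture library is the deeper, with 5649143 nuclear reads against 2160614. Rows with few leaf reads can thus pass through their culture reads alone. The median miRNA row had 3 reads in each library, against 21 in leaf and 30 in culture for genes, so these shares are not matched. Beside MIR167d the risen rows were MIR414, MIR157c, MIR399b, MIR156e, MIR167a, MIR172a, MIR841a, MIR319b, MIR172d and MIR169k. Of these MIR167a had 10 reads in leaf and 136 in culture, MIR156e 4 and 61, and MIR157c 2 and 48. MIR399b, of the family that acts on the phosphate regulator PHO2, had 6 and 106 reads, but its H3 reads went from 0 to 19. The row with the lowest ratio was MIR172c, with 16 reads in leaf and 4 in culture. The other fallen rows were MIR159c, MIR447b, MIR166g, MIR858a, MIR869, MIR169c, MIR156c and MIR165b. Members of 1 family thus stood at both ends: MIR172a and MIR172d rose while MIR172c fell. For H3K4me3 alone, 14 rows had enough reads, of which 3 rose (MIR408, MIR775 and MIR402) and 1 fell (MIR161), against 11.8% and 15.6% of protein-coding genes. MIR161, whose miRNA acts on pentatricopeptide repeat genes, had 16 reads in leaf and 6 in culture.

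**Figure D3:**
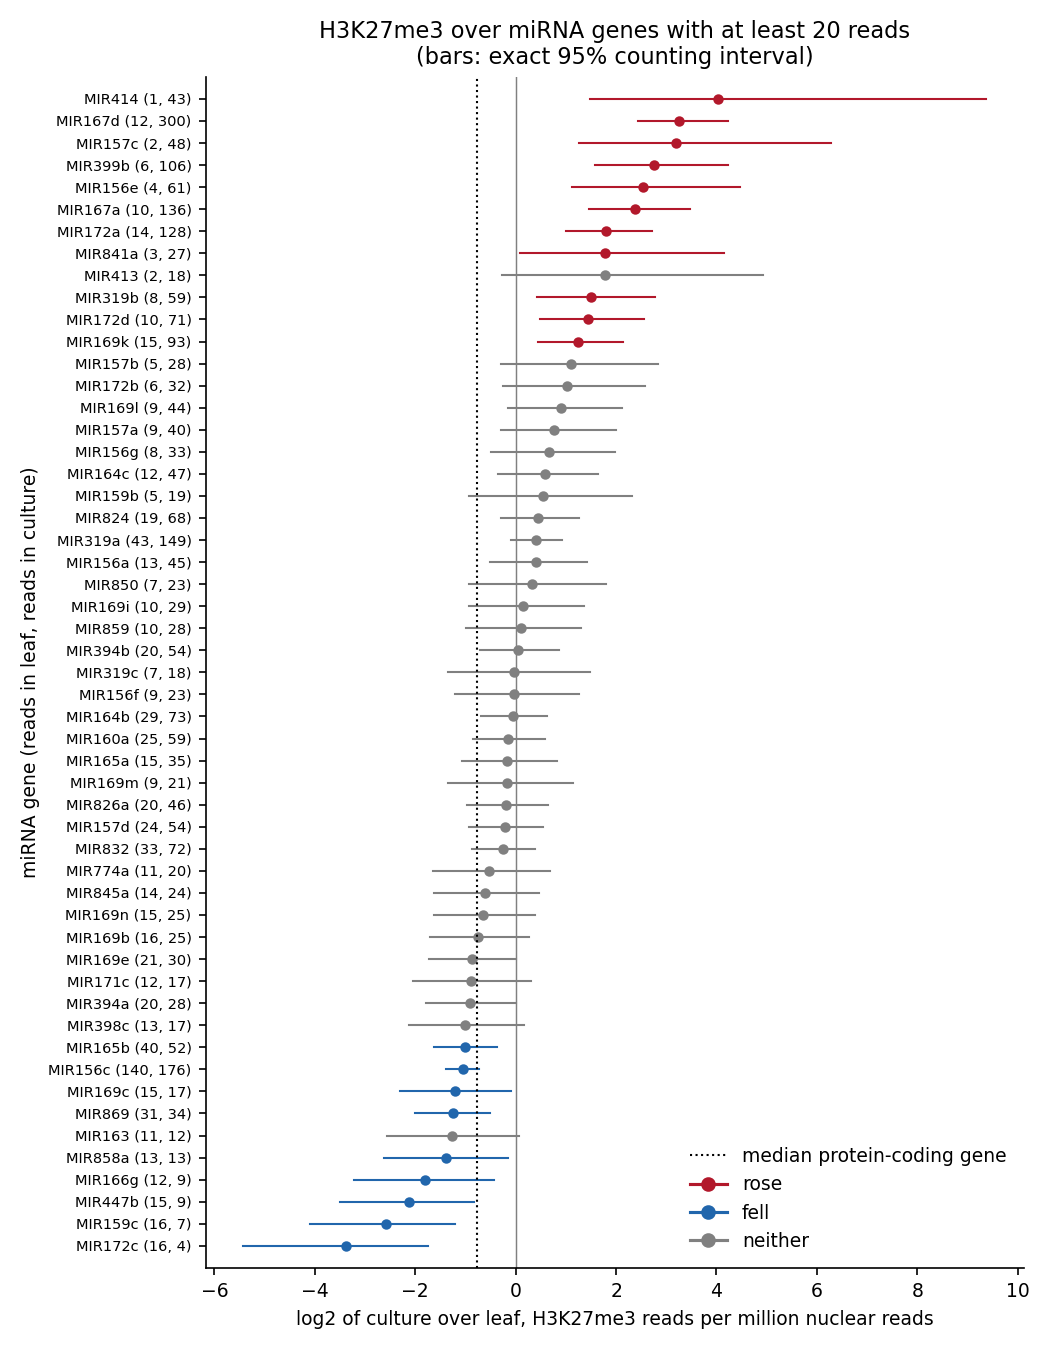
The log2 ratio of culture to leaf in H3K27me3 reads, each as a share of nuclear reads, is plotted for the 53 miRNA rows with at least 20 reads, with raw reads in parentheses and exact 95% counting intervals as bars. The rows spread from MIR172c, with 16 and 4 reads, to MIR414, with 1 and 43, on both sides of the protein-coding median of -0.77.

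To reach more loci, each miRNA row was joined with the intergenic rows of at most 5000 bp that touch it. This gave 150 neighbourhoods with a median length of 2020 bp, and 26 of them share a flank with another. A neighbourhood counts as marked where the mark was at least 2-fold over H3 with its interval above 0. For H3K27me3, 43 of 111 neighbourhoods with enough H3 reads were marked in leaf, 38.7%, against 18.7% of protein-coding gene neighbourhoods and 15.5% of intergenic rows beside genes. In culture 42 of 131 were marked, 32.1%, against 13.5% and 20.1%. For H3K4me3 the shares were lower than for genes, 2 of 111 in leaf against 15.1% and 12 of 131 in culture against 23.3%, where intergenic rows beside genes had 0.828% and 4.06%. For H3K9me2, none of 111 in leaf and 1 of 131 in culture were marked, against 1.19% and 1.74% of gene neighbourhoods and 2.23% and 3.7% of intergenic rows. The flanks alone, without 1 flank where leaf H3 reads per kb were over 20 times the gene median, held H3K27me3 at 0.94 in leaf and 1.39 in culture, and gene flanks held 0.10 and 0.52. The changes, 0.45 and 0.42, were close, with a counting interval from 0.37 to 0.54 for the miRNA flanks. Without the division they were 0.06 and -0.07, and the share of H3 reads changed by -0.39 and -0.49, so most of both rises comes from the H3 term.

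For H3K4me3, 88 neighbourhoods passed the count filter, of which 19 rose and 4 fell. Among protein-coding gene neighbourhoods 14.9% rose and 6.71% fell, and among intergenic rows beside genes 16.2% and 5.72%, against 21.6% and 4.55% here. The intergenic rows are single rows, of which 2781 of 30560 passed. The split turned with the scale: by the mark alone, without H3, 9 rose and 20 fell. MIR827, which acts on the phosphate transport regulator NLA, went from 22 to 191 reads with 19 and 27 H3 reads, a change of 2.94 with an interval from 1.90 to 3.97. The gene that touches its right flank, AT3G59890, rose by 1.87. MIR158b changed by 3.13, from 3 to 22 reads, and MIR842 by 2.19, from 12 to 53. By the mark alone MIR158b stood at 1.78, with an interval from 0.25 to 3.31, and MIR842 at 1.31, from 0.44 to 2.18. MIR779 changed by 2.10, but its H3 reads fell from 39 to 17, and by the mark alone it stood at -0.16. Below 0, MIR850 changed by -2.00, from 25 to 5 reads, MIR774a by -1.59, MIR167d by -1.50 and MIR157a by -1.16. Read counts of MIR167d and MIR157a for H3K4me3 were 31 and 48, and 30 and 31, with H3 reads that went from 19 to 110 and from 28 to 85.

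Of the families that act on the small RNA pathway, 4 neighbourhoods passed for H3K4me3 and 2 rose. They were MIR390a, which starts the trans-acting small RNAs of the TAS3 locus, with a change of 1.63, and MIR168a, which acts on AGO1 itself. MIR168a went from 42 to 158 reads with 21 and 35 H3 reads, a change of 1.54 with an interval from 0.63 to 2.44. Its right-hand neighbour AT4G19400 had 0 H3K4me3 reads in leaf and 25 in culture. MIR168b held 37 and 36 reads but only 5 and 4 H3 reads and did not pass. MIR390a and MIR168a are named after their values were seen. Of the 19 neighbourhoods that rose for H3K4me3, 18 had a touching gene that passed the filter, and in 2 such a gene rose too. Of all protein-coding genes that passed, 12.7% rose, so the count shows nothing particular to these genes.

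For H3K27me3, 102 neighbourhoods passed, of which 19 rose and 17 fell, with a median change of -0.00. The shares of 18.6% and 16.7% were near the 19.2% and 15.9% of intergenic rows beside genes, and differed from the 5.43% and 22.9% of protein-coding gene neighbourhoods. Those intergenic rows are single rows, of which 3479 of 30560 passed, so they are not matched to the joined neighbourhoods. Set against the median protein-coding gene row, which holds no flanks and changed by -0.57, 36 rose and 6 fell. The median change was -0.41 for protein-coding gene neighbourhoods and 0.08 for intergenic rows beside genes, and neither was used as zero. By the mark alone 14 rose and 31 fell. By role, families with transcription factor targets had 17 that rose and 6 that fell among 49, with a median change of 0.60. Families with hormone or nutrient targets had 1 and 5 among 16, with a median of -0.35. The small RNA pathway families had none in either direction among 5, and the other families had 1 and 6 among 32, with a median of -0.36. The lists used here do not place MIR173, described below, in the small RNA pathway group. These medians lay on either side of that of all miRNA neighbourhoods. Pooled over rows and flanks without the dense flank, the group with transcription factor targets changed by 0.75, and by 0.32 by the mark alone. The hormone or nutrient group changed by -0.47 and -0.49 on these scales. The small RNA pathway group changed by -0.71 and -1.12, and the other families by -0.00 and -0.43. The difference between roles was not tested.

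**Figure D4:**
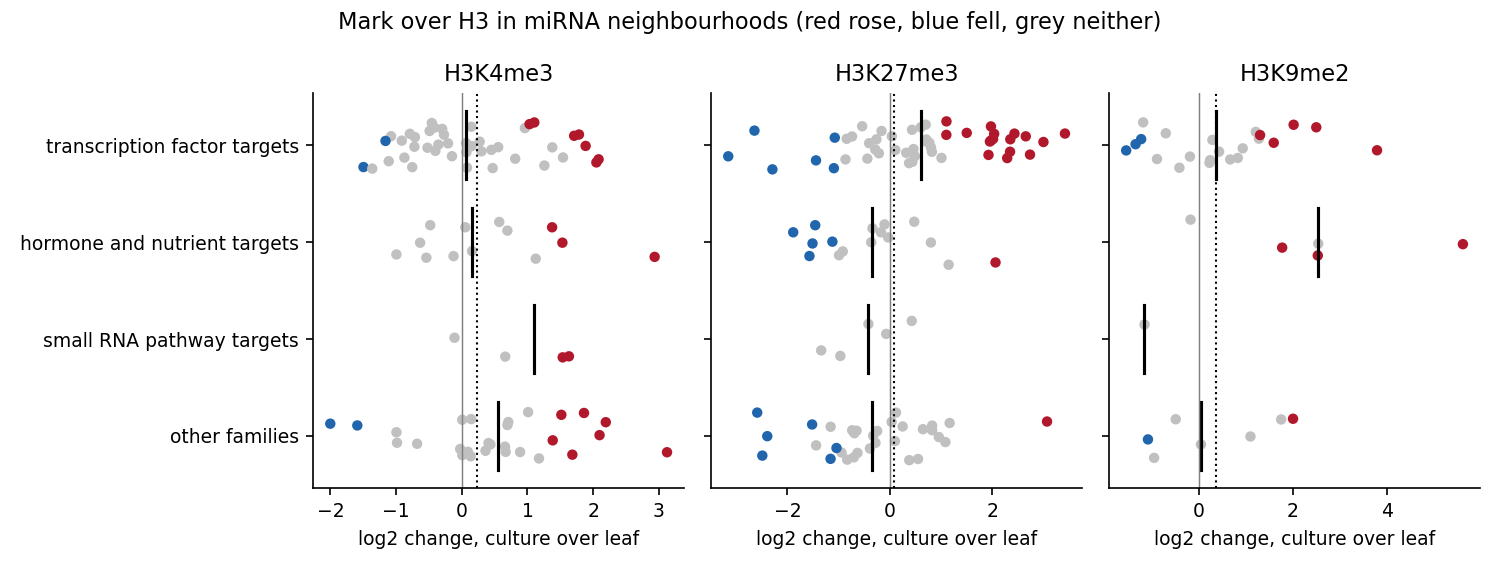
Each point is the change of 1 miRNA neighbourhood that passed the count filter, by the role of its family's targets. Solid bars are group medians, the dotted line is the median of intergenic rows beside protein-coding genes, and vertical scatter is for display only. For H3K27me3, 17 of the 19 that rose are in the group with transcription factor targets, which holds 49 of the 102 that passed. Of these 17, 5 are MIR169 loci, which are not separate counts. MIR169d and MIR169e share a flank, and MIR169k, MIR169l and MIR169m lie in a cluster with shared flanks.

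MIR167a (AT3G22886, chr3:8108021-8108622) had the strongest rise in H3K27me3. Its neighbourhood went from 21 to 379 reads with 23 and 31 H3 reads, a change of 3.41 with an interval from 2.43 to 4.40. The gene that touches its flank, the sulfate-assimilation gene APS1, fell by 1.56 on the log2 scale. The neighbourhood of MIR172a went from 18 to 143 reads, a change of 2.99. MIR159b, whose family acts on GAMYB-like factors, went from 12 to 129 reads, a change of 2.73 with an interval from 1.56 to 3.90. MIR394a, which acts on the F-box gene LCR, changed by 2.06, but its left flank is the dense one: H3 reads were 1700 in leaf and 471 in culture. By the mark alone MIR394a stood at -0.90, so its direction depends on the division by H3.

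Of the 4 deepest falls in H3K27me3, those of MIR156b and MIR172c lay against a gene that fell too. MIR156b (AT4G30972, chr4:15074945-15075024) went from 173 to 46 reads with 41 and 82 H3 reads, a change of -3.15 with an interval from -3.86 to -2.44. Its right-hand neighbour LRL2, a transcription factor of root hair growth, went from 135 to 11 reads, a change of -4.07. MIR172c (AT3G11435, chr3:3599776-3599908) went from 139 to 44 reads, a change of -2.64, and the touching gene GPAT5, which makes suberin, went from 500 to 93, a change of -3.47. MIR861 went from 72 to 57 reads, a change of -2.59, with H3 reads that went from 13 to 54. MIR173 (AT3G23125, chr3:8236161-8236246), which starts the trans-acting small RNAs of TAS1 and TAS2, went from 55 to 29 reads, a change of -2.39. Over all 17 neighbourhoods that fell, 13 had a touching gene that passed the filter, and in 4 of these such a gene fell. Of all protein-coding genes that passed, 26.7% fell and 2.76% rose, and a neighbourhood counts here if a gene on either side is called. Over the 19 that rose, 11 had a touching gene that passed, which rose in none of them and fell in 4. With so few genes these counts cannot be told from the shares of all genes.

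Families with at least 4 loci were pooled over rows and flanks. MIR167 turned from below H3 to above it in H3K27me3, at a level of -0.68 in leaf, with an interval from -1.21 to -0.14, and 1.36 in culture, from 1.12 to 1.59. Its change was 2.49 by the mark alone, against 2.03 over H3. Among the 3 of its 4 neighbourhoods that passed, MIR167a and MIR167d rose and none fell. Its H3K4me3 level went the other way, from 0.25 to -0.79, over H3 reads that were higher in culture at MIR167d. MIR172 went from 1.59 to 2.58 in H3K27me3, with MIR172a and MIR172b risen and MIR172c fallen among its 5 loci. Its change of 0.99 was 0.31 by the mark alone, with an interval from 0.19 to 0.43, as its H3 share changed by -0.68. MIR169, which acts on the NF-YA subunits of the CCAAT-binding factor, went from 0.94 to 1.93, with 5 risen and 1 fallen among the 12 that passed, and its change of 0.99 was 0.33 by the mark alone. Among those 5, MIR169d and MIR169e share a flank, and MIR169k, MIR169l and MIR169m lie in a cluster with shared flanks, so they are not separate counts. MIR157, a close relative of MIR156, went from 1.96 to 2.94, and its change was 0.99 on both scales. The H3K4me3 level of MIR157 went from -0.29 to -1.13.

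The remaining families moved less or the other way. MIR156 stayed at 1.57 and 1.70 in H3K27me3, and its members parted: MIR156e went from 64 to 694 reads, a change of 1.97, while MIR156b fell. MIR395, which acts on sulfate assimilation, stood at 0.98 and 0.74, and MIR166, which acts on HD-ZIP III factors of leaf polarity, at 0.46 and 0.21. Both changes, -0.24 and -0.25, had intervals that include 0. Their sign turns against the median protein-coding gene row, which changed by -0.57 but holds no flanks. Pooled gene flanks without H3-dense rows changed by 0.42, and both families lay below that. Both were lower by the mark alone, at -0.42 and -0.94, with intervals below 0. MIR399 went from 1.16 to -0.21, with MIR399b, MIR399c and MIR399d fallen and none risen among 4. Its change of -1.37 was -0.33 by the mark alone, with an interval from -0.54 to -0.12, and MIR399b counts as fallen over H3 although its row rose by the mark alone. Much of that pool is MIR399b, where reads of every antibody were higher in culture: H3 went from 16 to 289, H3K4me3 from 17 to 153, H3K27me3 from 50 to 485 and H3K9me2 from 0 to 82. The neighbourhood of MIR398a moved likewise, from 6 to 129 for H3, 7 to 130 for H3K4me3, 2 to 68 for H3K27me3 and 0 to 65 for H3K9me2. The part of these H3 reads in the levels of both families was not tested.

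**Figure D5:**
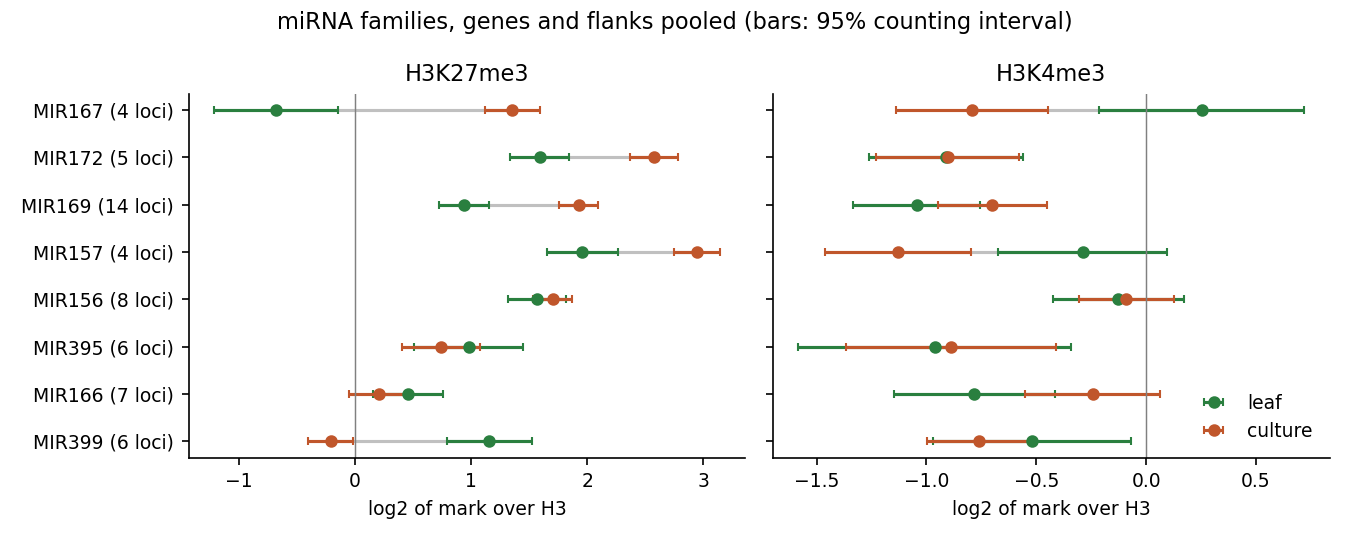
The log2 of mark over H3 in leaf and culture is plotted for the 8 families with at least 4 loci, rows and flanks pooled, with bars for the 95% counting interval. MIR167 moves from -0.68 to 1.36 in H3K27me3 and MIR399 from 1.16 to -0.21, while MIR156 stays at 1.57 and 1.70.

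For H3K9me2, 35 neighbourhoods passed, of which 9 rose and 4 fell, 25.7% and 11.4%, against 24.5% and 10.3% of protein-coding gene neighbourhoods. With the median protein-coding gene row, which holds no flanks and changed by 0.34, as zero, 5 rose and 6 fell. By the mark alone 11 rose and 10 fell, and with library totals that leave out H3-dense intervals 12 rose and 1 fell. MIR394a changed by 5.62, from 106 to 1220 reads, with the dense flank named above. MIR395a changed by 2.53, from 2 to 28 reads with an interval from 0.56 to 4.49, and MIR319c by 2.50, from 9 to 20 reads while H3 reads went from 26 to 11. MIR156e had 0 reads in leaf and 25 in culture, and its fitted change depends on the pseudocount. The lowest were MIR156b at -1.55, MIR160a at -1.35, MIR156a at -1.23 and MIR776 at -1.09, with 12 to 30 reads in each library. The shares called were near those of genes.

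The target genes of the conserved families were followed with a list of 53 genes, all present in the files. For H3K4me3, 52 passed, of which 4 rose and 4 fell, against 12.7% and 8.55% of protein-coding genes, with a median change of -0.18 against 0.11. By the mark alone 5 rose and 14 fell. The highest were NF-YA10, a target of MIR169, from 15 to 73 reads with a change of 2.51, CUC2, a boundary gene under MIR164, at 1.59, and ARF16, an auxin response factor under MIR160, at 1.46. The lowest were TCP10, a target of MIR319, from 182 to 48 reads with a change of -1.77, HAM3, a target of MIR171, from 264 to 38 reads at -1.72, and SPL10, a target of MIR156, at -1.26. SPL10 went from 51 to 142 reads while its H3 reads went from 23 to 202, and by the mark alone it stood at 0.72. For H3K27me3, 50 passed, of which 3 rose and 13 fell, against 2.76% and 26.7%, with a median of -0.30 against -0.57. Relative to the median protein-coding gene 3 rose and 4 fell, and by the mark alone 3 rose and 26 fell. Those risen by the mark alone were TCP2 at 4.35, SPL10 at 1.90 and AGO2, a target of MIR403, at 1.13. AGO2 and LCR count as fallen over H3, at -1.04 and -1.08, with H3 reads that went from 45 to 443 and from 29 to 223. By the mark alone LCR stood at 0.71.

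TCP2, another target of MIR319, went from 13 to 744 H3K27me3 reads with 20 and 30 H3 reads, a change of 4.89 with an interval from 3.79 to 5.99. SNZ, an AP2-like target of MIR172, changed by 1.95, from 72 to 321 reads, and TCP10 by 1.79, from 70 to 348. By the mark alone SNZ and TCP10 stood at 0.75 and 0.91, short of 2-fold. TCP10 was thus lower in H3K4me3 and higher in H3K27me3 in the culture. The lowest were ATHB-8, an HD-ZIP III gene of vascular tissue under MIR166, at -2.40, APS4, a sulfate-assimilation gene under MIR395, at -1.95, and CUC1 at -1.84. For H3K9me2, 22 passed, of which 4 rose and none fell, against 21.6% and 10.7%, with a median of 0.67. Relative to the median gene 4 rose and 2 fell, and by the mark alone 7 rose and 3 fell. The highest were LAC4, a laccase gene, from 1 to 21 reads at 3.56 with an interval from 1.38 to 5.75, TCP2 at 2.86 and ATHB-15 at 2.75. The lowest, PHB at -1.11, SNZ at -0.94 and ARF6 at -0.70, had intervals that include 0.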

How the data were processed

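The deposited files hold raw read counts per annotated row, 1 file per library, with coordinates of TAIR10. Per the submitters' processing notes, reads were aligned with Bowtie2 and counted with bedtools by the authors. Not given in the sources used here are versions, read length and the handling of duplicate or multiply mapped reads, and the files carry no strand. Counts were divided by the nuclear reads of their library, per 1000000. Levels, changes, neighbourhoods and calls follow the definitions in the report, with intervals at 95% from counting error (Python 3.11.15, pandas 2.3.3, scipy 1.17.1). Pooled values are sums over rows without a pseudocount. H3-dense rows have over 20 times the median H3 reads per kb of protein-coding genes in leaf. The calculation was tested on simulated counts. Row calls by the mark alone, pools of short rows or without single rows, and calls without the dense flank were added after the data were seen. The miRNA genes, families and target list were chosen with earlier results of these data known. The text names the rows that passed the filter, the 4 highest and 4 lowest neighbourhoods per mark by the interval end nearer 0, the 3 rows with most reads per library, families of at least 4 loci, and the 3 highest and lowest targets per mark. Other names were chosen after their values were seen.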

Additional observations from a re-analysis of the deposited data

Results flagged for a closer look

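Among the rows and neighbourhoods that passed the count filter, there were 8 where a mark lay on opposite sides of the H3 level in leaf and culture, with both intervals excluding it. With 1 library per antibody and sample type, none of these differences was tested. In H3K27me3 the neighbourhood of MIR159b lay below H3 in leaf, at -1.27, and above it in culture, at 1.46, a change of 2.73. The MIR167d neighbourhood went from -1.20 to 0.78, a change of 1.98, with more H3 reads in culture. The MIR172a row moved in the same direction with a change of 3.24. In the opposite direction, the neighbourhood of MIR156b went from 1.47 to -1.68, a change of -3.15. MIR861 went from 1.81 to -0.78, a change of -2.59, and MIR173 from 1.23 to -1.16, a change of -2.39. In H3K4me3 the MIR779 neighbourhood went from -1.03 to 1.06, a change of 2.10, with fewer H3 reads in culture. In H3K9me2 the MIR394a neighbourhood went from -4.31 to 1.31, a change of 5.62, in which 1 flank holds most of the H3 reads.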

How the results depend on the processing

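No paired analysis was possible because each antibody has 1 library per sample type. Of 111 alternative values of the pooled results and counts, 57 lay within the reported counting interval or within 1.5 times the reported count, and the others did not. For the named neighbourhoods, 145 of 162 kept direction and call. The causes of these shifts were not tested. With flanks added, MIR394a's dense flank included, the pooled changes were 0.52 (H3K4me3), 0.94 (H3K27me3), 1.84 (H3K9me2) and -0.93 (H3), and levels were -0.57 in leaf and -0.051 in culture for H3K4me3, 0.31 in leaf for H3K27me3 and -0.86 in culture for H3K9me2. Without that 1 flank the same changes were 0.39, 0.41, 0.61 and -0.35. The same levels were then -0.43, -0.043, 0.95 and -1.55. Rows of at most 300 bp gave changes of -0.080 (H3K27me3) and -0.10 (H3K9me2), and levels of -0.092 and -0.0022 (H3K4me3, leaf and culture), 1.49 and 1.41 (H3K27me3) and -2.04 (H3K9me2, leaf). Without overlapping rows the H3K4me3 change was -0.035, and the levels were 0.051 and 0.016 (H3K4me3), 1.40 and 1.53 (H3K27me3) and -3.17 (H3K9me2, leaf). Against the median protein-coding gene they were 0.25 and 0.28, 1.74 and 2.52, and -0.43 and -0.23, and the H3K27me3 change was 0.73. With totals that leave out H3-dense rows, H3K27me3 stood at 0.77 and 0.98, H3K4me3 in culture at 0.40 and H3K9me2 in culture at -1.76. Without MIR167d, H3K4me3 in culture stood at 0.77. Without MIR398c, an alternative added after the data were seen, H3K4me3 stood at 0.025 and 0.45 and its change was 0.42. The neighbourhoods called, 23, 36 and 13 for H3K4me3, H3K27me3 and H3K9me2, became 7, 16 and 4 with at least 40 mark and 20 H3 reads, 14, 23 and 8 with a 3-fold rule, and 12, 18 and 2 with flanks up to 2000 bp. For H3K9me2 they became 27 with no filter and 21 by the mark alone, and with no filter 21 rose and 24 fell for H3K27me3. By the mark alone 4 rows were called for H3K4me3 in place of 2, and 20 for H3K27me3 in place of 1, and with at least 10 mark and 5 H3 reads 3 rows were called for H3K27me3 and 1 row for H3K9me2, in place of none. Target calls became 19, 29 and 10 by the mark alone, and 7 for H3K27me3 against the median gene. By the mark alone MIR779 turned to -0.16 in H3K4me3 and MIR394a to -0.90 in H3K27me3. Depth limits single rows: 155 of 177 held no H3K9me2 read in leaf.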
